A study of Mus musculus with 2 samples.

Results

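The valve leaflets were examined for cells in the cell cycle, using 35 genes that mark DNA replication or mitosis. A cell with at least 1 UMI (unique molecular identifier, the count of 1 captured transcript) of 4 or more of these genes was called cycling. All 35 symbols were present among the 32285 genes of the count matrices, and 22 of 875 WT cells and 188 of 3438 mgR cells were cycling. Only cells in which 200 to 5000 genes were detected, and in which mitochondrial transcripts made no more than 10% of UMIs, were kept.

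WT and mgR were compared, each as 1 single-cell RNA library of mitral valve leaflets. The WT library came from Fbn1+/+ littermates, and the mgR library from Fbn1 mgR/mgR mice, a model of Marfan syndrome in which both copies of the fibrillin-1 gene are the hypomorphic mgR allele. All mice were 12 weeks old and on the C57BL/6J background, and leaflet cells were released with collagenase A and elastase and sorted for viability. The single-cell data are described with n = 3 in a legend, but the labels do not say how many animals went into each library. With 1 library per genotype, animals, library and genotype cannot be told apart and no test between genotypes was possible; intervals are 95% and cover counting error only.

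The mgR library was deeper, with a median of 7370 UMIs per kept cell against 5033 in WT, and a total of 28215539 UMIs against 5381844. Both libraries held cells with Xist and no Y-linked UMIs (246 WT and 2091 mgR) and cells with Y-linked UMIs and no Xist (337 and 724), although the study's methods give male mice for its comparisons. The shares and the summed levels over all cells are therefore also given within these classes. The libraries shared 2 barcode sequences.

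Cells entering division copy their DNA in S phase and separate the copies in mitosis, and each step has its own genes. S phase genes include the MCM helicase subunits, which unwind DNA, and the enzymes that make its building blocks. The G2 and M phase genes include the cyclin-dependent kinase Cdk1, its cyclin partners and the proteins of the spindle and kinetochore. In adult tissue these transcripts are held at low levels outside dividing cells, in part through promoter elements called CHR (cell cycle genes homology region), CCAAT box and E2F site.

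Of the 35 genes, 8 were assigned to S phase (Rrm1, Rrm2, Tyms, Mcm5, Mcm6, Pclaf, Uhrf1 and Tk1) and 27 to G2/M. The G2/M genes were the cyclins and kinases Cdk1, Ccna2, Ccnb1, Ccnb2, Aurka, Aurkb, Bub1, Bub1b and Plk1, the centromere and kinetochore genes Cenpa, Cenpe, Cenpf and Spc25, the spindle genes Nusap1, Tpx2, Kif11, Kif20b, Kif23, Prc1, Ckap2l and Hmmr, and Mki67, Top2a, Birc5, Ube2c, Cdca3 and Cdca8. The proximal promoters of these sides differed in their letters, which is why 5 are shown here. A promoter from RefSeq (GRCm38.p6, 250 bases before to 50 after the start) was found by symbol for 32 of the 35 genes, but not for Aurkb, Ccna2 and Tpx2. The letters searched, on both strands, were TTTGAA for CHR, CCAAT for the CCAAT box, and for E2F the letters TTCGCGC or else TTGGCGC or else TTCCCGC or else TTGCCGC. The CHR letters stood in 19 of 24 G2/M genes (79.2%) and 0 of 8 S genes, and in 20.2% of all 27025 genes with a promoter. The E2F letters stood in 6 of 8 S genes (75%), in 4 of 24 G2/M genes (16.7%) and in 10.9% of all genes. The CCAAT letters were in 87.5% of G2/M genes and 75% of S genes, against 41.1% of all genes. These matches describe the sequence and are not evidence of binding. The 250 bases before the start of Cdk1 (chr10:69352913-69353162, minus strand), Top2a (chr11:99024190-99024439, minus), Ube2c (chr2:164769679-164769928, plus), Mcm5 (chr8:75109259-75109508, plus) and Mcm6 (chr1:128359706-128359955, minus) follow, 5′ to 3′, with the searched letters in capitals; neighbouring matches overlap in Ube2c, Mcm5 and Mcm6.
Cdk1: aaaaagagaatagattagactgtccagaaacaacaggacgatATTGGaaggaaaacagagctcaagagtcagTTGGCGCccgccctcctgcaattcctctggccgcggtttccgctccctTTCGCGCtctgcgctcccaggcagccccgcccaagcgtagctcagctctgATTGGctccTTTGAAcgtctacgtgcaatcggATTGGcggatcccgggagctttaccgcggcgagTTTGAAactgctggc
Top2a: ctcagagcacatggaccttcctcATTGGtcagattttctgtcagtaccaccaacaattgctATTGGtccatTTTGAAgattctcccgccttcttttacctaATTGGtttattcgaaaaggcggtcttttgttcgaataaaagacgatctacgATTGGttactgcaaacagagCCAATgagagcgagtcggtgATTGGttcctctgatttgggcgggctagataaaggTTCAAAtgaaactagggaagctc
Ube2c: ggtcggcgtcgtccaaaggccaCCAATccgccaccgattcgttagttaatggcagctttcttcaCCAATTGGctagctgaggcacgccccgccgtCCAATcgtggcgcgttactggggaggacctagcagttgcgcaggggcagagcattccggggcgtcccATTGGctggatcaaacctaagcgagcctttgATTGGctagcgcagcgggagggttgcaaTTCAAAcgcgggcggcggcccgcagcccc
Mcm5: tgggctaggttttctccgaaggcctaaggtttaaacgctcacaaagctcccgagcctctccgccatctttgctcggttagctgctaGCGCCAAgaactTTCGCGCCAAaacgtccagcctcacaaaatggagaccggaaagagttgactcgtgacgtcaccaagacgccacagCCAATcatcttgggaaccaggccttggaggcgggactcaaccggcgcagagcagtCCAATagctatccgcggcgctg
Mcm6: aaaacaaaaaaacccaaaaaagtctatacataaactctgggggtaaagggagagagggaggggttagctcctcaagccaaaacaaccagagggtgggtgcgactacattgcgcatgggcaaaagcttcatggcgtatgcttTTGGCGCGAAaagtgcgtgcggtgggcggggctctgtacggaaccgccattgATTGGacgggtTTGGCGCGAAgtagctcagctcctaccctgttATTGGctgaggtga

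The CHR letters began 71 and 15 bases before the start in Cdk1, 179 and 23 bases before it in Top2a, and 29 bases before it in Ube2c. In the S gene Mcm6, the E2F letters began 109, 106, 46 and 43 bases before the start. The matches at 109 and 106 overlap, as do those at 46 and 43. The G2/M gene Cdk1 also had E2F letters, 178 and 130 bases before its start. Mcm5 and Mcm6 had the most E2F matches of the members in the full promoters, 3 and 5. The S genes Tk1 and Tyms had 0 matches of any of the searched letters.

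Cycling cells were more frequent in the mgR library. The share was 2.51% in WT (22 of 875 cells, exact Clopper-Pearson interval 1.58 to 3.78) and 5.47% in mgR (188 of 3438, 4.73 to 6.28), a difference of 2.95 percentage points (1.49 to 4.19). Depth moved with the call: cycling cells had a median of 10950 UMIs in WT and 12326.5 in mgR, against 4968 and 7171 in the other cells. After each cell was thinned to 2000 UMIs, leaving out 116 and 158 shallower cells, the shares were 1.32% and 2.71%, and the difference was 1.40 points (0.18 to 2.32). Within cells of Xist alone the shares were 4.07% in WT and 6.03% in mgR, a difference of 1.96 points whose interval (-1.47 to 4.33) included 0. Within cells that had only Y-linked UMIs they were 2.08% and 4.97%, a difference of 2.90 points (0.29 to 5.12). When the mgR shares of each cell type were weighted by the WT mix of types, the mgR value was 5.24%.

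The number of members detected per cell fell into a large class near 0 and a small class at high numbers. In WT 495 cells had no member and in mgR 1572. In mgR, 64 cells had 20 or more of the 35 genes, 27 had 10 to 19 and 97 had 4 to 9; in WT these numbers were 5, 6 and 11. Just outside the limit, 27 WT and 146 mgR cells had 3 members, and just inside it 8 WT and 49 mgR cells had 4. After thinning, 63 of the 64 mgR cells with 20 or more members were still cycling, against 1 of the 64 cells with 4 or 5 members, a contrast that the starting numbers largely fix. At 10 or more members, the shares were 1.26% in WT and 2.65% in mgR, a difference of 1.39 points (0.28 to 2.25). With the same limit after thinning the difference was 0.81 points, and its interval (-0.08 to 1.41) included 0.

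**Figure D1:**
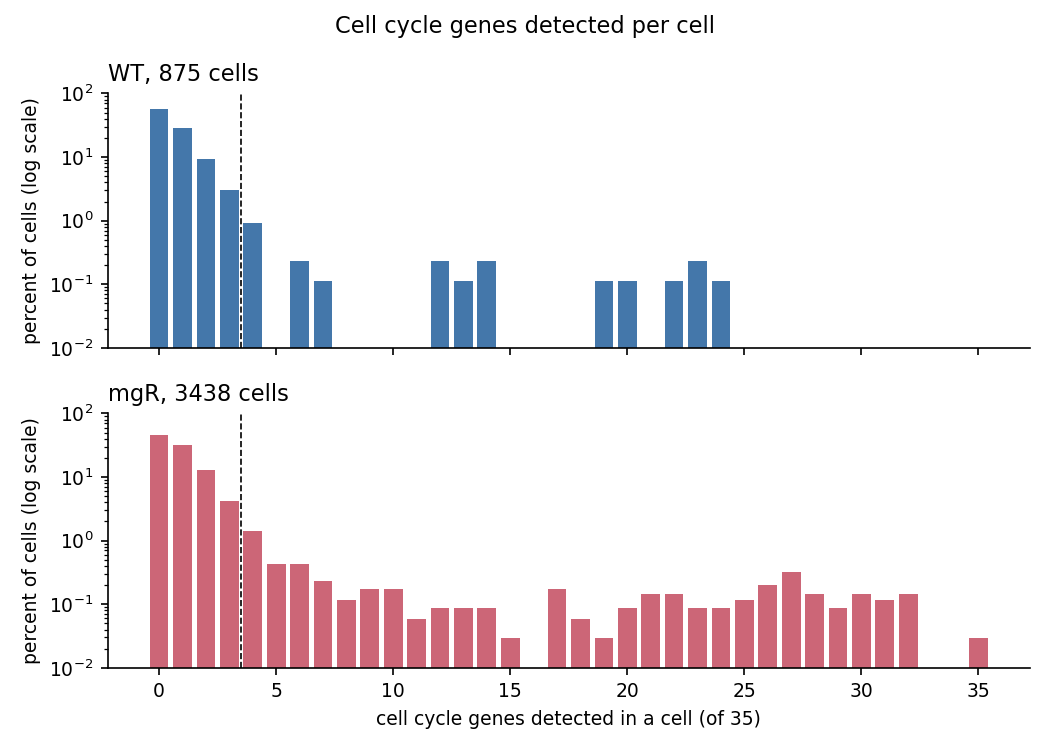
Percent of kept cells (log scale) by the number of the 35 cell cycle genes detected, WT above and mgR below, with the limit of 4 genes as a dashed line. Most cells have 0 or 1 gene, and 64 mgR cells lie at 20 or more.

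Cycling cells were mostly immune cells. When each cell was counted once, macrophages made 10 of the 22 WT cycling cells and 117 of the 188 in mgR (62.2%). Dendritic cells made 5 and 26, and T cells 5 and 26. Fibroblasts, the main matrix-producing cells of the valve, made 0 and 5, and endothelial cells 1 and 4. Of all kept cells, macrophages made 25.7% in WT and 44.6% in mgR, dendritic cells 4.80% and 4.16%, and T cells 10.2% and 4.57%. Fibroblasts made 35.1% and 23.6% of them, and endothelial cells 6.51% and 12.9%. The types were called by UMIs of C1qa, C1qb and C1qc (macrophages, 10 or more), Col1a2, Col3a1 and Dcn (fibroblasts, 10 or more), Pecam1 and Cdh5 (endothelium, 2 or more), Xcr1 and Clec9a, or Cd209a (dendritic cells, 2 or more), and Cd3d, Cd3e and Cd3g (T cells, 2 or more). Inside each type the median of these sums was at least 5 UMIs and outside it was 0. Cells that met several types were 54 of the WT and 477 of the mgR cells, and 2 and 20 of the cycling cells. Such a cell was counted as T cell before dendritic cell, macrophage, endothelium, mural cell and fibroblast, in that order. Red cell, neutrophil, melanocyte and B cell came before these. By the marker rules alone, cycling fibroblasts were 1 in WT and 11 in mgR, and cycling endothelial cells 1 and 10.

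Among macrophages, which clear debris and are the largest type in mgR, 4.37% were cycling in WT (10 of 229) and 7.96% in mgR (126 of 1583). The difference of 3.59 points had an interval of -0.15 to 6.27, and of -1.19 to 3.33 around 1.67 after thinning. Macrophages with 10 or more members were 5 of 229 in WT and 56 of 1583 in mgR. Dendritic cells, which present antigen, had the highest shares among the 5 types given here, 11.6% in WT (5 of 43) and 18.1% in mgR (26 of 144). Their difference was 6.43 points (-8.27 to 17.0). T cells had 6.67% in WT (6 of 90) and 16.5% in mgR (27 of 164), a difference of 9.80 points (0.78 to 17.6), which was 5.78 (-2.89 to 13.0) after thinning. After thinning T cells had higher shares than dendritic cells, 5.95% and 11.7% against 2.33% and 8.33%, with overlapping intervals. Within Xist cells the macrophage difference was 3.30 points (-4.45 to 7.48) and within Y-linked cells 3.02 (-3.51 to 7.28). Of the types given, T cells alone had a difference whose interval excluded 0, and it did not after thinning.

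Fibroblasts and endothelium cycled rarely. Cycling fibroblasts were 1 of 353 in WT (0.28%) and 11 of 1209 in mgR (0.91%), and after thinning 0 of 323 and 3 of 1173. Without cells marked by the doublet caller Scrublet they were 1 of 348 and 6 of 1173, and the difference was 0.22 points in place of 0.63. Cycling endothelial cells were 1 of 60 and 10 of 478 (1.67% and 2.09%). Of the 10 mgR endothelial cells, 8 also met another type, and 2 of 145 were cycling among cells that met the endothelial rule alone. The endothelial difference of 0.43 points was -0.40 with 3 or more members, -0.17 without the cells marked by Scrublet and -1.33 with the marker minimum raised 2-fold. Scrublet marked 0 of the WT and 8 of the mgR cycling cells. Neutrophils, which leave the marrow after their last division, had 0 of 16 in WT and 0 of 45 in mgR, where the limit set by a count of 0 is 18.8% and 6.67%. Mural cells of the vessel wall had 0 of 15 and 0 of 68, with a limit of 20% and 4.41%.

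**Figure D2:**
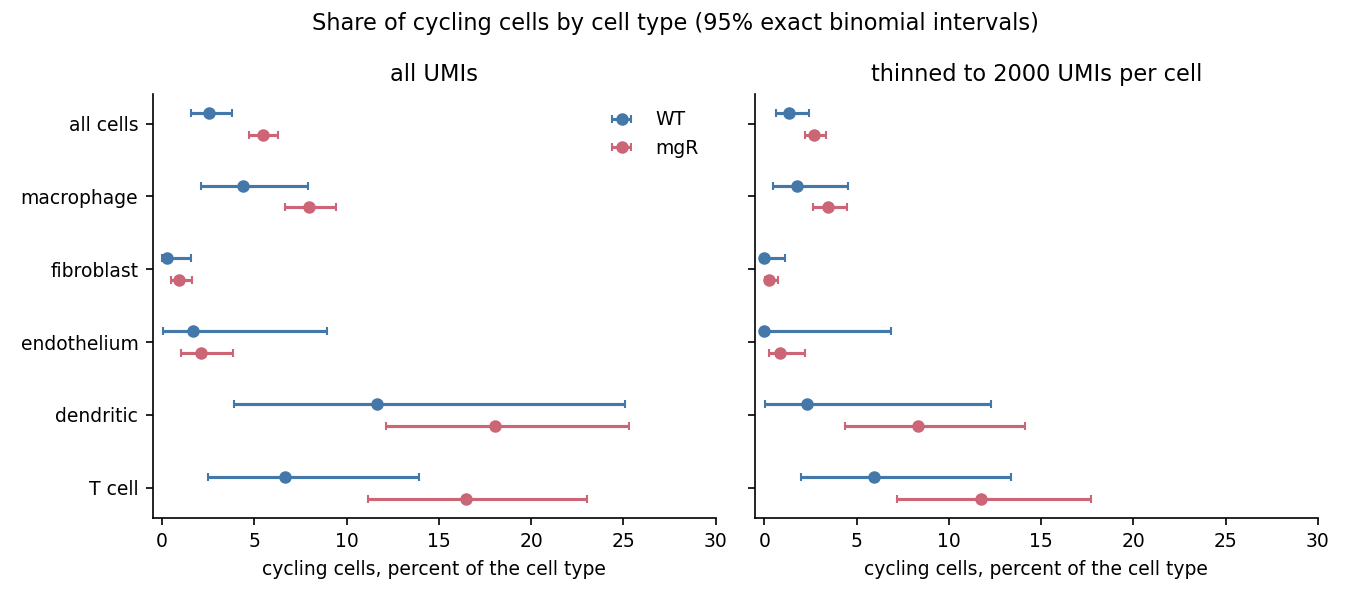
Percent of cells of each type that were cycling in WT and mgR, with all UMIs on the left and after thinning on the right; bars are exact 95% binomial intervals. Dendritic and T cells have the highest values, and fibroblasts are below 1% in both libraries.

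Dendritic cells were split by their markers. Among Xcr1 or Clec9a cells, the cross-presenting dendritic cells, 0 of 8 were cycling in WT and 10 of 54 in mgR (18.5%). Among Cd209a cells 5 of 35 (14.3%) and 16 of 90 (17.8%) were cycling. With the stricter limit of 10 or more members these became 0 of 8 and 8 of 54, and 1 of 35 and 4 of 90. At the limit of 4 members the intervals of these subsets overlapped in each library (9.25 to 31.4 and 10.5 to 27.3 in mgR).

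Genes of the S and G2/M sides were detected together in many cycling cells. A side was counted when at least 2 of its members were detected. In WT, 13 of 22 cycling cells had both sides, 8 had G2/M alone and 1 had S alone. In mgR these were 132, 44 and 12 of 188. After thinning, both sides were seen in 4 of 10 WT and 46 of 89 mgR cells, and among mgR cells with 4 to 9 members in 48 of 97. Among cycling mgR T cells 24 of 27 had both sides and 0 had S alone. In the cycling cells the median number of members was 2 of 8 S genes and 6 of 27 G2/M genes in WT, and 3 and 5 in mgR.

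**Figure D3:**
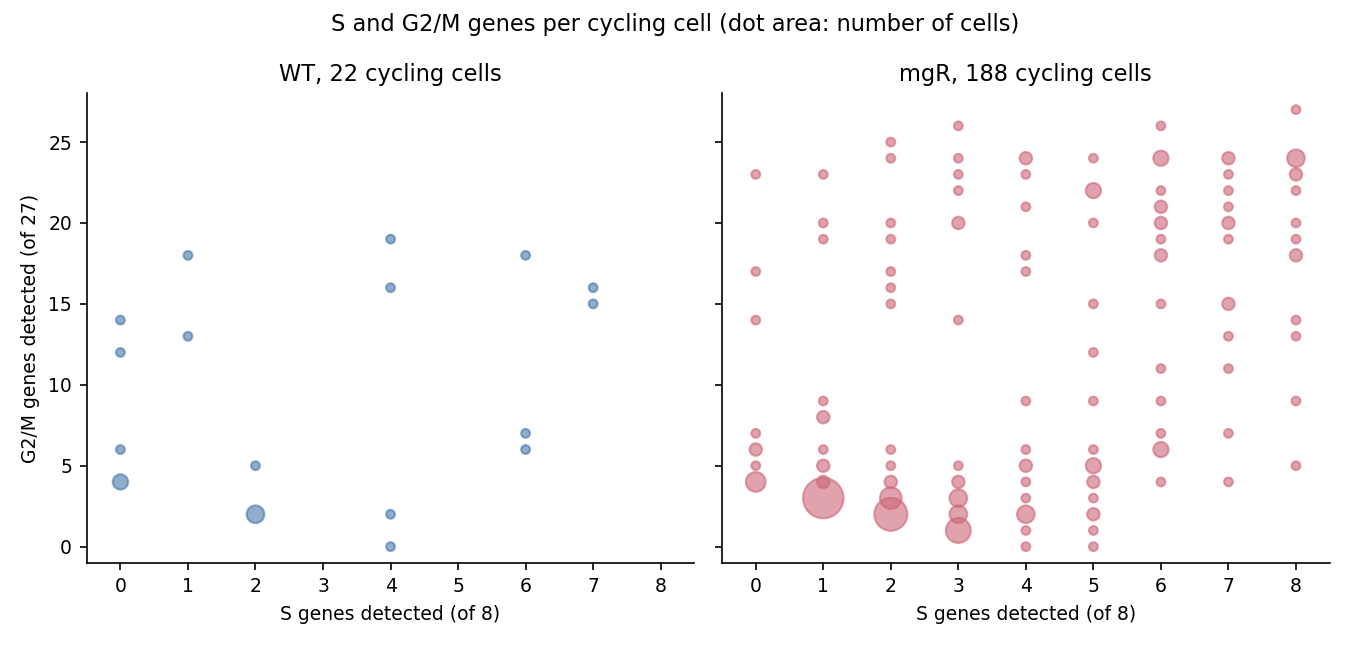
Number of S genes (horizontal, of 8) and G2/M genes (vertical, of 27) detected in each cycling cell, WT left and mgR right; the area of a dot shows how many cells share the position. Cells at the upper right hold most genes of both sides, and those near the lower left were called on few genes.

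In expression level, members were also higher in mgR when all cells were summed. The 35 genes took 272 CPM (UMIs of the gene per 1000000 UMIs of the cells summed) in WT and 491 CPM in mgR, a ratio of 1.81 (1.70 to 1.92). Without the cycling cells, which were chosen by these genes, the ratio was 0.90 (0.83 to 0.99), and it was 1.55 (1.42 to 1.69) in Xist cells and 1.24 (1.12 to 1.37) in Y-linked cells. Cycling cells held 50.7% of the member UMIs in WT and 76.6% in mgR. Of the 35 genes, 26 were at least 1.5-fold higher and 0 lower in mgR over all cells, where 9.09% of all 14081 genes with 20 or more UMIs were higher and 15.1% lower. The median log2 ratio of the members was 1.06 against -0.08 for all genes, where the log2 ratio was taken with 0.5 added to each count. Of the 9 genes that were not called in either direction, 5 were S genes.

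In macrophages, 21 of the 35 members were at least 1.5-fold higher in mgR and 0 lower, where 17.6% of the 11220 genes with enough UMIs were higher and 8.31% lower. The interval of the ratio lay above 1 for 18 of the 35 and below 1 for 0. The summed ratio was 1.81 (1.66 to 1.98). It was 1.03 (0.89 to 1.20) without the cycling macrophages, 1.29 (1.14 to 1.46) in Xist cells alone and 1.20 (1.01 to 1.43) in Y-linked cells. These intervals treat each UMI as independent and leave out the error from sampling few cells. Macrophages with 10 or more members, 5 in WT and 56 in mgR, held 55.3% and 73.4% of the member UMIs. The median log2 ratio was 0.84, against 0.10 for all genes, and 0.86 with Ccnb1 at its bound and nothing added to the counts. In many of these genes the WT level rests on a handful of cells: the 10 WT cells with most UMIs held 100% of the UMIs of Top2a and 79.1% of those of Mki67.

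Among the genes of proliferating cells, Mki67, which coats mitotic chromosomes and encodes the Ki-67 antigen (GRCm38 chromosome 7, 135689784 to 135716361, minus strand), had 44.8 CPM in WT macrophages (67 UMIs in 24 cells) and 84.1 in mgR (1179 UMIs in 237 cells). The ratio was 1.88 (1.47 to 2.44). Top2a, the topoisomerase that untangles DNA (chromosome 11, 98992943 to 99024189, minus), had 32.1 CPM in WT (48 UMIs in 8 cells) and 63.6 in mgR (892 UMIs in 100 cells). Its ratio was 1.98 (1.48 to 2.71).

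Cyclins and their kinase had mixed precision. Cdk1, the kinase that starts mitosis, had 8.70 CPM in WT and 14.3 in mgR, a ratio of 1.65 (0.94 to 3.15), and a log2 ratio of -0.38 after thinning. Ccnb1, a cyclin that activates it, had 0 UMIs in WT and 41 in mgR, or at least 1.46-fold higher in mgR when 3 UMIs are taken as what a count of 0 allows. Ccnb2 had 6.69 and 9.92 CPM, a ratio of 1.48 (0.78 to 3.16). Ccna2 rested on 3 WT UMIs and had a ratio of 3.06 (1.01 to 15.1). Of the 4, only Ccna2 had an interval above 1 besides the bound of Ccnb1.

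The genes of the spindle and of chromosome segregation ranged widely, with ratios both above and below 1. Prc1, a bundler of spindle microtubules, had 6.69 CPM in WT and 25.1 in mgR, a ratio of 3.75 (2.02 to 7.89). Ube2c, which helps destroy cyclins at the end of mitosis, had 5.35 and 21.8 CPM, a ratio of 4.08 (2.04 to 9.53). Birc5, a subunit of the chromosomal passenger complex, had 12.0 and 30.03 CPM, a ratio of 2.49 (1.56 to 4.25). Bub1, a kinase of the spindle checkpoint, rested on 1 WT UMI and had a ratio of 7.25 (1.26 to 291), and its log2 ratio was -0.69 after thinning. Hmmr, a spindle-associated hyaluronan receptor, rested on 2 WT UMIs and had a ratio of 6.40 (1.73 to 53.4). Tpx2, a spindle assembly factor, had 6.02 and 16.2 CPM (2.69, 1.39 to 5.96) but a log2 ratio of -0.29 after thinning. The smallest ratios among the G2/M genes were those of Cenpa, the centromeric histone, with 44.2 and 57.1 CPM (ratio 1.29, 1.005 to 1.69), the mitotic kinase Aurka, with 1.34 and 1.498 CPM (1.12, 0.27 to 9.85), and Ckap2l, a spindle protein, with 19.4 and 14.2 CPM (0.73, 0.49 to 1.12). The 27 G2/M genes had a median log2 ratio of 1.12, or 0.99 with Ccnb1 at its bound, with 18 called higher.

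The 8 S genes had a median log2 ratio of 0.42 in macrophages, and 3 were called higher. Pclaf, a partner of the replication clamp PCNA, had 13.4 and 24.3 CPM (ratio 1.82, 1.16 to 3.01), and Tyms, which makes thymidylate, had 9.37 and 16.7 CPM (1.78, 1.04 to 3.31). Rrm2, the regulatory subunit of ribonucleotide reductase, had 4.68 and 4.92 CPM (1.05, 0.48 to 2.71). Mcm6, a helicase subunit, had 20.7 and 24.5 CPM (1.18, 0.82 to 1.77). Uhrf1, which keeps DNA methylation through replication, had 3.35 and 5.56 CPM (1.66, 0.68 to 5.26) and a log2 ratio of -1.04 after thinning. The summed S ratio was 1.43 and the summed G2/M ratio 1.93. The difference between the sides was not tested.

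**Figure D4:**
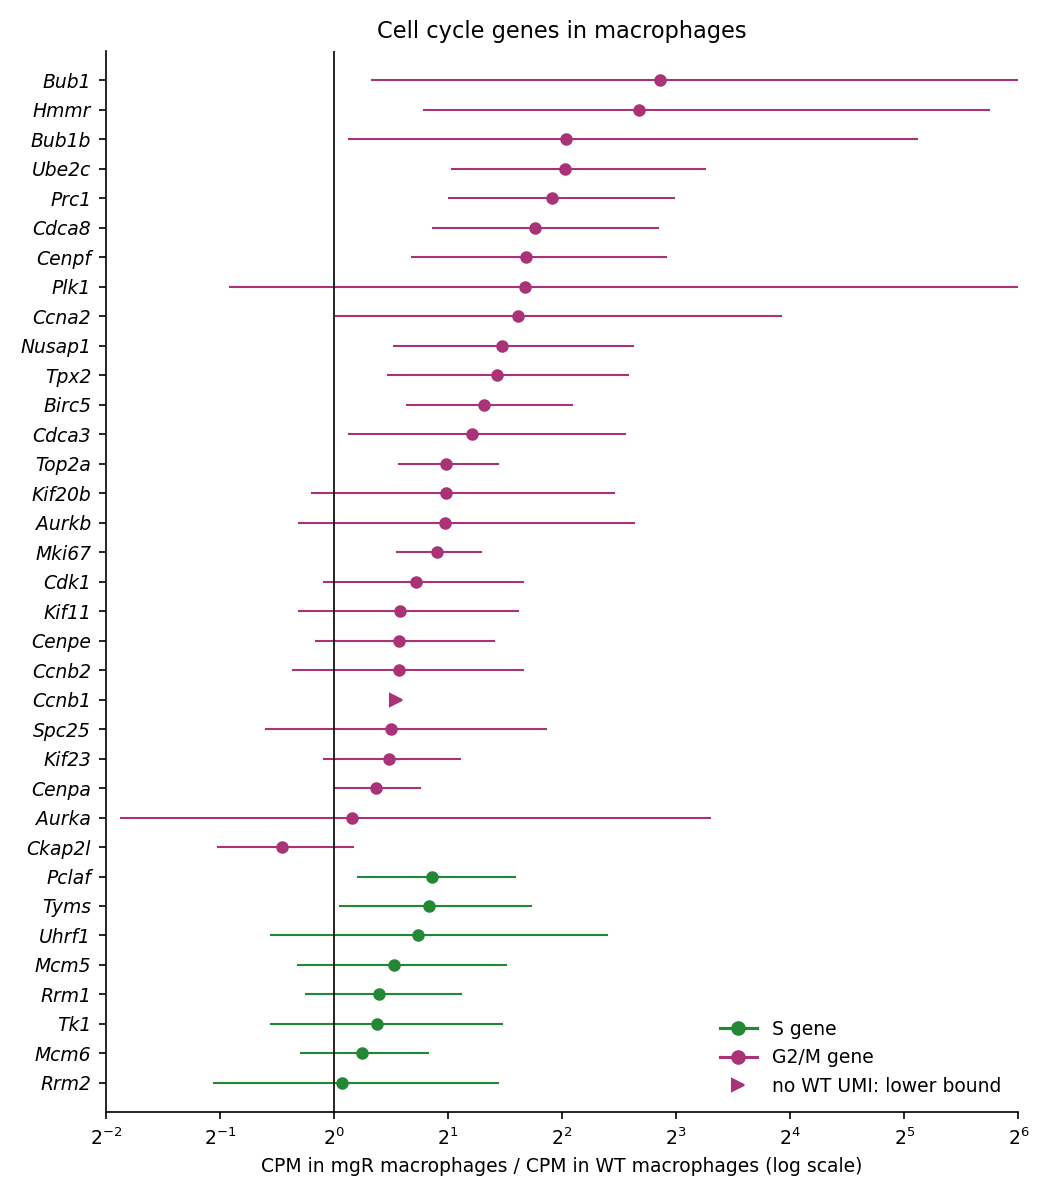
CPM in mgR macrophages divided by CPM in WT macrophages for each of the 35 genes (log scale), with exact 95% intervals for counting error; the arrow marks Ccnb1, which had no WT UMI, and the intervals of Bub1 and Plk1 run past the axis. Most G2/M genes lie right of 1, and the S genes lie closer to it.

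In dendritic cells, 21 of the 23 members with enough UMIs were at least 1.5-fold higher and 1 lower, where 19.9% of 6600 genes were higher and 12.2% lower. The interval lay above 1 for 11 of the 23 and below 1 for 1. Pclaf had 7.55 CPM in WT (3 UMIs) and 78.2 in mgR (134 UMIs), a ratio of 10.3 (3.47 to 50.8). Mki67 had 30.2 and 120 CPM, a ratio of 3.98 (2.23 to 7.82). Cenpa was the gene that was lower, with 95.7 and 47.8 CPM (0.50, 0.34 to 0.76). The WT values rest on 5 cycling cells. After thinning, 5 genes called higher had negative log2 ratios, from -1.74 for Uhrf1 to -0.16 for Nusap1 and Ube2c. The summed ratio was 2.48 (2.08 to 2.99), and it was 0.75 (0.56 to 1.01) without the cycling cells.

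In T cells, 16 of 26 members were higher and 2 lower, where 16.1% of 6664 genes were higher and 15.2% lower. The interval lay above 1 for 12 of the 26 and below 1 for 1. Top2a had 74.7 CPM in WT and 172 in mgR (2.31, 1.56 to 3.52), and Mki67 had 79.7 and 189 (2.37, 1.62 to 3.55). Cenpa had 254 and 157 CPM (0.62, 0.48 to 0.80). The summed ratio was 1.63 (1.46 to 1.82), while it was 0.95 (0.79 to 1.14) when only Y-linked cells were counted. Without the cycling cells, which were chosen by these genes, the summed ratio over T cells was 0.62 (0.50 to 0.78).

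In fibroblasts, 11 of 19 members were at least 1.5-fold higher and 1 lower, where 13% of 12174 genes were higher and 9.92% lower. The interval lay above 1 for only 4 of the 19 and below 1 for 0. The WT level was low: Top2a had 2.12 CPM in WT (4 UMIs) and 6.02 in mgR (52 UMIs), a ratio of 2.84 (1.05 to 10.8). Rrm2, the member that was lower, had 4.24 and 2.66 CPM (0.63, 0.27 to 1.62). The summed ratio was 1.53 (1.29 to 1.82), and 1.01 (0.84 to 1.21) without the cycling cells. In endothelium, 5 of 13 members were higher and 0 lower, where 15.5% of 9846 genes were higher and 17% lower. The interval lay above 1 for only 2 of the 13 and below 1 for 0. Top2a had 1 WT UMI and 64 in mgR, a ratio of 6.02 (1.04 to 242), and Mcm6 had 26.3 and 23.5 CPM (0.89, 0.43 to 2.15). The summed endothelial ratio was 1.71 (1.26 to 2.38), and 0.76 (0.54 to 1.10) without the cycling cells. Of the endothelial cells, 29 of 60 in WT and 310 of 478 in mgR also met the fibroblast rule. In endothelial cells of 1 type alone the summed ratio was 1.56, and its interval (0.82 to 3.35) included 1. Thinning turned the median log2 ratio of the members from 0.52 to -0.17 in fibroblasts and from 0.50 to -0.36 in endothelium. With genes that had no UMI in a library at their bound, the unthinned medians were 0.66 and 0.40.

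Members were also detected in cells that were not cycling. Among the 3250 mgR cells with fewer than 4 members, Cenpa was seen in 17.6%, Rrm1 (the large subunit of ribonucleotide reductase) in 9.32%, Mcm6 in 8.92% and Mki67 in 5.94%. The corresponding WT values were 13.6% for Cenpa, 7.27% for Rrm1, 5.51% for Mcm6 and 3.40% for Mki67. Free RNA in the droplets was not tested as a source of these UMIs.

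Over all cells, other genes of the cell cycle, not used to call the cells, moved with the number of members. In mgR, 32 other G2/M genes took 314 CPM in cells with fewer than 4 members, 371 in those with 4 or 5, 729 with 6 to 9, 2315 with 10 to 19 and 5561 with 20 or more. The 24 other S genes took 389, 517, 1213, 2198 and 2222 CPM in the same classes. In WT the other G2/M genes had 355 CPM below 4 members and 3835 CPM at 10 or more, and the other S genes 444 and 2174 CPM. Between fewer than 4 and 4 or 5 members, the WT values went from 444 to 791 CPM for the other S genes and from 355 to 507 CPM for the other G2/M genes. The 16 entry regulators, among them the D cyclins and E2F factors, had 511 and 877 CPM in mgR cells with fewer than 4 and 10 or more members. The 16 arrest genes, among them the kinase inhibitors, had 2290 and 2712 CPM. Of the 126 cycling mgR macrophages, 47 had 4 or 5 members. In these the other G2/M genes had 328 CPM (282 to 379), against 300 (290 to 310) in mgR macrophages with fewer than 4. The other S genes had 450 (396 to 509) and 411 CPM (400 to 423), so the intervals overlapped for both lists.

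**Figure D5:**
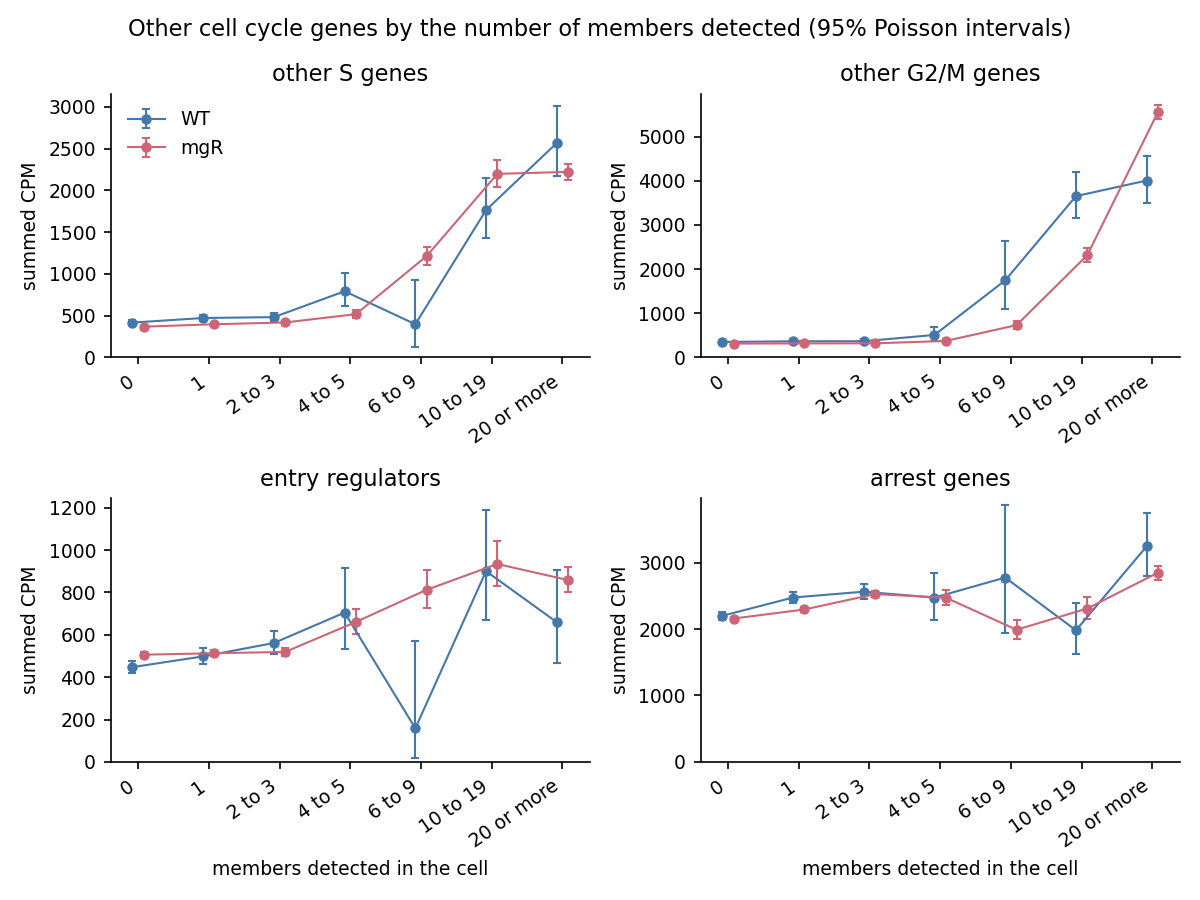
Summed CPM of 4 lists of cell cycle genes, none of them used to call the cells, by the number of members detected in a cell (95% Poisson intervals), WT blue and mgR red. In mgR the lists of other S and G2/M genes climb from 4 to 5 members upward. Over both libraries the arrest genes stay between 1980 and 3245 CPM.

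Within macrophages the cycling cells were compared with the others in each library. In mgR, 28 of the 29 other G2/M genes with enough UMIs were at least 1.5-fold higher in the cycling cells and 0 lower, and 21 of 24 other S genes were higher and 0 lower. Of all 11015 genes outside the members, 18.2% were higher and 11.4% lower. In WT, 5 of 5 other G2/M genes with enough UMIs were higher, and of 8 other S genes 6 were higher and 1 lower. Of 6163 genes there, 20.7% were higher and 22.8% lower. Stmn1, a microtubule regulator, had 1136 CPM in cycling and 55.6 in other mgR macrophages, a ratio of 20.4 (18.7 to 22.3), and 1246 and 61.9 CPM in WT, a ratio of 20.1. Histone genes, which are transcribed in S phase, were among the 10 genes with the highest ratio: Hist1h1b had 840 UMIs in the cycling and 1 UMI in the other macrophages of mgR, and 28 and 0 in WT, at least 149-fold higher. Of the entry regulators, 12 of 15 were higher in cycling mgR macrophages, for example E2f1 with 46.8 and 11.0 CPM (4.25, 3.18 to 5.64). Among the D cyclins in mgR, Ccnd1 had a ratio of 1.91 (1.69 to 2.14), Ccnd2 of 0.96 and Ccnd3 of 0.94. In WT, 3 of 9 entry regulators were higher and 0 lower, and E2f1 was at 1.77 (0.20 to 7.39). Of the arrest genes, 2 of 13 were higher and 2 lower in WT, and 3 of 16 were higher and 1 lower in mgR. In mgR, Cdkn1a, which encodes the inhibitor p21, had 1441 and 1435 CPM (1.004, 0.96 to 1.05), while Cdkn2c had 50.4 and 13.8 CPM (3.66, 2.78 to 4.77).

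Markers of macrophage subsets differed between the cycling and the other cells. In mgR, the resident macrophage markers Lyve1, Folr2 and Cd163 were lower in the cycling cells, with ratios of 0.56 (0.52 to 0.60), 0.56 (0.52 to 0.61) and 0.39 (0.33 to 0.47). Cd72 was higher, at 2.38 (2.13 to 2.65), and so was Cx3cr1, a chemokine receptor, at 1.74 (1.54 to 1.96). In WT Cd72 was at 1.66 (1.09 to 2.44), and Cx3cr1 at 0.73 (0.38 to 1.26), on the other side of 1. In mgR, Ly6c2, a marker of monocytes, had 0 UMIs in the cycling and 278 in the other macrophages. The monocyte marker Plac8 had 57 and 216 UMIs there (1.93, 1.41 to 2.59). These UMIs came from few cells: 28 mgR macrophages had Ly6c2 and 0 of them were cycling, where a count of 0 allows up to 10.7%. Plac8 was also seen in 28, of which 4 were cycling (14.3%, 4.03 to 32.7). Ccr2, which monocyte-derived cells carry, was at 1.23 (0.94 to 1.59). In WT the cycling macrophages had 1 UMI of Lyve1, 0 of Folr2 and 0 of Cd163, against 521, 534 and 322 UMIs in the others. Among cells with a Folr2 UMI, 0 of 94 were cycling in WT, where a count of 0 allows up to 3.19%, and 74 of 1082 (6.84%) in mgR. Median depth was 8741 UMIs in mgR macrophages with Folr2 and 7426 without. Among cells without one these were 10 of 135 (7.41%) and 52 of 501 (10.4%). After thinning, 12 of 855 mgR cells with Folr2 (1.40%) and 42 of 704 without (5.97%) were cycling. With a Cd72 UMI the thinned mgR share was 4.95% (2.73 to 8.16), and without one 3.13% (2.25 to 4.24), with overlapping intervals. For Cx3cr1 the thinned mgR shares were 7.43% (4.72 to 11.0) and 2.53% (1.74 to 3.56). C1qa, which was used to call the macrophages, was 0.87 times as high in the cycling cells of mgR and 0.78 times in WT.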

How the data were processed

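Mitral valve leaflet cells of 1 WT and 1 mgR library were profiled by 10x Genomics 3' chemistry (v3). The authors deposited raw UMI counts per gene and cell, made with Cell Ranger 7.1.0 on mm10 per the submitters' processing notes; the annotation release and the treatment of introns are not given in the sources used here. Kept cells had 200 to 5000 genes and at most 10% mitochondrial UMIs (875 of 1104 WT and 3438 of 3802 mgR barcodes). Doublets were marked with Scrublet (through scanpy 1.11.5; 7 WT and 51 mgR cells) and left in, apart from 1 alternative. Groups came from the GEO labels. CPM was computed from UMIs summed per library and cell type. Shares have exact Clopper-Pearson intervals, CPM values have Poisson intervals, and the ratio of 2 CPM values an interval from the exact binomial test of its counts; the UMIs behind a value set its precision. Genes with 20 or more UMIs over both libraries were compared, and a ratio of 1.5 either way was called. With 1 library per genotype no p-value was computed. Genes named were the members and those of 4 lists (24 other S, 32 other G2/M, 16 entry, 16 arrest genes), macrophage subset markers, and the 10 other genes with the highest ratio of cycling to other mgR macrophages among those with 100 or more UMIs. The members and lists were chosen with earlier results of these data known. All 35 members were matched by gene ID to GENCODE M21 (GRCm38); 7 overlapped another gene on the same strand. The interval and ratio functions were tested on simulated data. Analyses used Python 3.11.15, numpy 2.4.6, scipy 1.17.1 and pandas 2.3.3. Alternatives are given in the closing section.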

Additional observations from a re-analysis of the deposited data

Results flagged for a closer look

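In the mgR library, 2 barcodes with more than 5000 detected genes, which the comparisons left out, had 4 or more members (9 and 13). No WT barcode was over that limit.

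Of 107 list genes and subset markers, H2-Aa and H2-Eb1, which encode chains of MHC class II, had intervals on opposite sides of 1 in the libraries when cycling were compared with other macrophages. H2-Aa was 1.57 times as high in the cycling cells of WT and 0.75 times in mgR, and H2-Eb1 1.65 and 0.77 times. The difference between the libraries was not tested, and WT had 10 cycling macrophages.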

How the results depend on the processing

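No paired analysis was possible because each genotype was 1 library. The following differences in the share of cycling cells, mgR minus WT, left the interval of the value given in the report. Over all cells the difference was 4.46 points with 4 or more UMIs over the members, 1.40 after thinning to 2000 UMIs, and, by choices made after seeing the data, 1.39 with 10 or more members and 0.81 with 10 or more members after thinning, whose interval (-0.08 to 1.41) included 0. In endothelium it was 4.49 in cells with Y-linked UMIs alone, also chosen after seeing the data.

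The median log2 ratio of the members moved as follows, with the Xist and Y-linked classes again chosen after seeing the data. Over all cells it was 0.73 with the mean of per-cell values, 0.82 thinned, 0.62 in Xist cells and 0.33 in Y-linked cells. In macrophages these were 0.56, 0.47, 0.37 and 0.14. In fibroblasts they were 0.19, -0.17, 1.72 and -0.33, so thinning and the Y-linked cells turned the direction. In endothelium the median was -0.36 thinned and 1.09 in Y-linked cells. In dendritic cells it was 0.58 thinned, 1.15 in cells of 1 type alone, 2.04 in Xist cells and 1.16 over members with 1 UMI or more. In T cells it was 1.17 without Scrublet-marked cells, 1.80 in cells of 1 type alone and 0.014 in Y-linked cells. The cause was not tested.

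The share of cycling cells with 2 or more S members was 40% in WT and 55.1% in mgR after thinning, and in mgR 87.9% with 6 or more and 92.3% with 10 or more members. That with 2 or more G2/M members was 100% in WT under these 3 settings, and 99.2% and 100% in mgR with 6 or more and 10 or more. At 10 or more members the 100% is fixed in both libraries, because only 8 of the 35 members are S genes.

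Of 270 alternatives for single members, 235 stayed inside the interval, 13 left it and 22 turned a called direction. In macrophages the log2 ratio after thinning was -0.38 for Cdk1, -0.69 for Bub1, -0.29 for Tpx2 and -1.04 for Uhrf1, and with per-cell means -1.46 for Plk1. In fibroblasts it was, thinned, -1.12 for Ccnb2, -1.86 for Birc5, -1.50 for Ube2c and Cdca8 and -0.48 for Mcm5, and with per-cell means -0.34 for Ube2c, -0.000715 for Prc1 and -0.60 for Cdca8. In endothelium it was, thinned, -0.66 for Ube2c and -0.36 for Cdca8, and with per-cell means -0.54 for Nusap1 and -0.94 for Cdca8. In dendritic cells, thinned, it was -0.52 for Cdk1, -0.16 for Nusap1 and Ube2c, -0.37 for Mcm6 and -1.74 for Uhrf1. With at most 22 cycling WT cells, depth limits every value by cell type.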

Other observations

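T cells with a UMI of Cd8a, which marks cytotoxic T cells, were cycling in 2 of 7 WT and 6 of 12 mgR cells. Those with a UMI of Trdc, a chain of the gamma delta T cell receptor, were cycling in 1 of 53 WT (1.89%) and 8 of 45 mgR cells (17.8%). With a UMI of Cd4 they were 0 of 1 and 3 of 12. Of B cells, 0 of 6 in WT and 3 of 51 in mgR were cycling, and 1 cell rich in hemoglobin transcripts was cycling in each library.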
